A study of Triticum aestivum with 10 samples.

Results

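Wheat anthers were compared here across 2 conditions and 2 ranges of length: the longer sterile anthers of 2.2 and 2.5 mm (arrays S2.2 and S2.5) against the shorter fertile anthers of 1.5 and 2.0 mm (F1.5 and F2.0). All 10 arrays of the series came from BS366, a thermosensitive genic male sterile (TGMS) line, and held anther RNA that the labels place at meiosis. After vernalization in the field plants were kept in a phytotron with 12 h of light at 20 °C, and those of the sterile condition were moved to 10 °C for 5 days. Each condition had 5 arrays, S1.5 to S3.0 and F1.5 to F3.0 by length in mm, hybridized to the Affymetrix Wheat Genome Array. The 4 arrays of the comparison differ in both temperature and length, and the part of each in a value cannot be told apart. The line is the only genotype, and none of the sources used here says if the RNA of an array came from 1 plant or a pool.

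Members were chosen by their signals. A probe set, a group of short probes against 1 transcript, was a member if both sterile signals lay outside the range of the 2 fertile signals. Of 61179 probe sets without the array's controls, 30590 passed a filter on mean level over all 10 arrays. Of these, 11653 were members: 3660 with both sterile signals above both fertile ones (12.0% of those tested) and 7993 with both below (26.1%). The other 18937 (61.9%) had overlapping ranges. Because these 4 arrays chose the members, their differences on them are a description with no test, and nothing is read from those percentages.

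In a grass anther, meiocytes divide inside concentric cell layers, and the innermost of these, the tapetum, feeds the developing microspores and supplies material for the pollen wall. Anther length is commonly used as a stand-in for stage, since the anther lengthens as its meiocytes pass through meiosis. TGMS lines form fertile or sterile pollen depending on the temperature around this period. The question the comparison addresses is how far the transcripts of cold-treated anthers that have already grown longer differ from those of shorter anthers that were not cold-treated.

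The signals are MAS5 intensities on a linear scale. Mean signal ranged from 117.7 to 125.5 over the 10 arrays, and the 4 arrays had 19.4% to 19.9% of their values at or below 4.05, the level to which low signals were raised. The median of the tested probe sets on the log2 scale was 6.33 on S2.2 and 6.30 on S2.5, against 6.39 on F1.5 and 6.52 on F2.0. Over all tested probe sets the median sterile minus fertile difference was thus -0.09 on the log2 scale. After median centring, 48.9% of the members lay above the fertile range (5461 above and 5709 below), after quantile normalization 52.3% (5952 and 5427), and as deposited 31.4%. Both scalings give the arrays a common centre and so bring the split near even by construction. The split between members above and below, and the direction of small gaps, thus depend on the scaling. The control probe set for 18S ribosomal RNA, which shows how much ribosomal RNA was labelled, read 39.7 on S2.2 and 134.7 on S2.5, against 314.9 on F1.5 and 8.78 on F2.0. Outside the comparison it read 2833 on S1.5, 50.1 on S2.0 and 32.3 on S3.0. On F2.2, F2.5 and F3.0 it read 3.91, 9.26 and 2.22. The part of this signal in the differences, here and on the 6 other arrays, was not tested.

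Array against array, S2.2 and S2.5 lay about as far from F1.5 and F2.0 as the fertile arrays lay from each other. Between a sterile and a fertile array of the 4, the number of probe sets 2-fold or more apart was 1577 (S2.2 and F1.5), 1703 (S2.2 and F2.0), 1786 (S2.5 and F1.5) and 2316 (S2.5 and F2.0). F2.0 and F1.5 differed by 2-fold or more at 1862 probe sets, and S2.5 and S2.2 at 1376. At equal length, the counts were 2765 for S1.5 and F1.5, 2775 for S2.0 and F2.0, 5417 for S2.2 and F2.2, 5095 for S2.5 and F2.5 and 6728 for S3.0 and F3.0. The correlation of log2 signal across the 30590 probe sets, which are not independent replicates, was 0.944 to 0.956 for the 4 pairs of a longer sterile and a shorter fertile array, 0.960 within the sterile pair and 0.950 within the fertile pair. For sterile and fertile arrays of the same length it was 0.931 (S1.5 and F1.5), 0.934 (S2.0 and F2.0), 0.874 (S2.2 and F2.2), 0.861 (S2.5 and F2.5) and 0.799 (S3.0 and F3.0). These pairs share arrays, and no test was made between them.

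**Figure D1:**
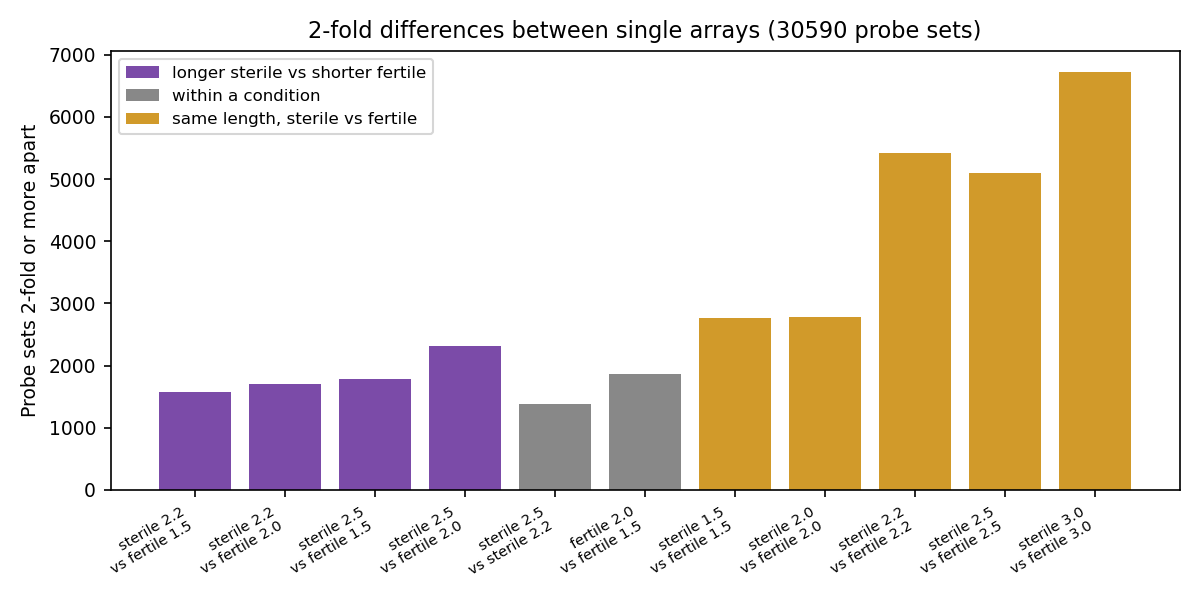
Bars give the number of the 30590 tested probe sets with signals 2-fold or more apart between 2 arrays (y axis), for each pair of arrays (x axis). The 4 pairs of a longer sterile and a shorter fertile array have 1577 to 2316 such probe sets, the pairs within a condition 1376 and 1862, and the pairs of equal length 2765 and 2775 at 1.5 and 2.0 mm and 5095 to 6728 from 2.2 mm on.

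A stricter cut asks for a gap: the nearest sterile and fertile signals of the probe set at least 2-fold apart. In the comparison of longer sterile with shorter fertile anthers, 29 probe sets lay above by such a gap (0.0948% of those tested) and 110 below (0.360%). With both conditions at 2.2 and 2.5 mm the same cut gave 647 above (2.12%) and 1031 below (3.37%). Both comparisons use the sterile arrays, so their counts are set side by side only. Most members had narrow gaps. The median gap was 1.08-fold for those above and 1.11-fold for those below, and 90% of the gaps were under 1.31-fold and 1.41-fold. The probe sets nearest to the cut had gaps of 1.997-fold (above, not counted) and 2.037-fold (above, counted), and of 2.005-fold (below, counted).

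Of the 200 probe sets with a gene name, 121 passed the filter. Both sterile signals lay above both fertile ones for 30 of them (24.8%, where 12.0% of all tested probe sets did), and below for 31 (25.6%, where 26.1% did). The other 60 overlapped. None reached a 2-fold gap. At the edge of the rule, TEF1, a translation elongation factor, was just inside with 4573 and 5081 in sterile against 4536 and 4275 in fertile anthers (probe set Ta.659.2.S1_x_at), and the beta-tubulin tubb2 just outside with 2725 and 2751 in sterile against 2506 and 2754 in fertile anthers.

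Among the named probe sets below the fertile range, that for CAT1, a catalase that breaks down hydrogen peroxide (chromosome 4B), had the widest gap. Its signal was 133.9 on S2.2 and 91.1 on S2.5, against 248.8 on F1.5 and 356.0 on F2.0. The means on the log2 scale were 6.79 ± 0.39 in sterile and 8.22 ± 0.37 in fertile anthers (SD, n = 2 each), 2.69-fold apart, and the nearest signals were 1.86-fold apart. WZF1, which encodes a zinc-finger protein, read 36.0 and 34.7 in sterile against 67.6 and 53.2 in fertile anthers, with a gap of 1.48-fold. DMAS1 takes part in making mugineic acid, with which grasses take up iron. Its probe set Ta.5335.3.S1_a_at read 132.5 and 112.4 in sterile against 181.7 and 181.3 in fertile anthers, while the 2 others of the gene overlapped. XTH, which encodes an enzyme that cuts and rejoins xyloglucan chains of the cell wall, read 90.2 and 63.9 in sterile against 117.7 and 130.8 in fertile anthers. UBC1, which encodes a ubiquitin-conjugating enzyme, read 144.2 and 130.6 in sterile against 185.8 and 253.1 in fertile anthers on 1 probe set, and its 2 other probe sets overlapped. On these 5 probe sets the lowest signal of the 4 arrays was that of S2.5.

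The tapetum genes were all members, by narrow gaps. TaRAFTIN1A and TaRAFTIN1B encode proteins that the tapetum secretes and that come to lie on the pollen wall. TaRAFTIN1B read 1087 and 643.1 in sterile against 1422 and 1947 in fertile anthers on Ta.4091.1.S1_x_at, a gap of 1.31-fold. On Ta.4091.1.S1_s_at it read 1499 and 1027 in sterile against 1503 and 2447 in fertile anthers, so that S2.2 and F1.5 all but touched. TaRAFTIN1A read 1484 and 1092 in sterile against 1577 and 2395 in fertile anthers on Ta.4195.1.S1_at, and 965.0 and 719.6 in sterile against 992.0 and 1120.0 in fertile anthers on Ta.4176.1.S1_x_at. On each of the 4 probe sets S2.5 was lowest and F2.0 highest. The median difference of the 4 was -0.62 on the log2 scale, beside -0.09 over all tested probe sets. After median centring only 2 of the 4 still lay below the fertile range, with a median of -0.54, and after quantile normalization all 4 did. TaRAFTIN1A and TaRAFTIN1B lie on chromosomes 7A and 7B and can share probes, so their probe sets are not independent. The 4 signals summed to 5036 and 3482 in sterile against 5494 and 7909 in fertile anthers, well above the low end of the array. Fewer tapetum cells and less RNA per cell cannot be told apart in such samples.

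Of the other named members below the fertile range, 1 probe set of rbcl had a gap of 1.53-fold and the rest 1.29-fold or less. PMM, a phosphomannomutase that feeds mannose into ascorbate and glycoprotein synthesis, read 33.9 and 33.3 in sterile against 43.8 and 43.5 in fertile anthers. Prx1, of the antioxidant list, read 384.4 and 348.7 in sterile against 462.5 and 621.1 in fertile anthers on Ta.6572.1.S1_at, and its 2 other probe sets lay below too, Ta.6572.1.S1_a_at by a hair (153.6 and 119.5 in sterile against 154.0 and 279.2 in fertile anthers). The plasma membrane proton pump H+-ATPase read 546.8 and 552.1 in sterile against 646.4 and 627.1 in fertile anthers on Ta.28364.1.S1_x_at and 330.7 and 334.8 in sterile against 378.5 and 423.0 in fertile anthers on Ta.28364.1.S1_at, while TaAffx.55278.1.S1_x_at overlapped. ATI (b), of the defence and inhibitor list, was dim, with 22.9 and 10.7 in sterile against 28.3 and 30.8 in fertile anthers. XIP-I, an inhibitor of fungal xylanase, had 1 probe set below (47.5 and 54.9 in sterile against 72.4 and 70.2 in fertile anthers) and 1 above (69.1 and 47.4 in sterile against 42.9 and 39.2 in fertile anthers), so that its probe sets disagree. The same held for rbcl, the large subunit of Rubisco: Ta.24976.1.S1_x_at lay above with 6299 and 6308 in sterile against 5695 and 4604 in fertile anthers, TaAffx.128414.16.S1_at below with 22.0 and 21.2 in sterile against 39.5 and 33.6 in fertile anthers, and TaAffx.128414.181.S1_at below with 212.4 and 207.6 in sterile against 323.4 and 272.0 in fertile anthers.

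**Figure D2:**
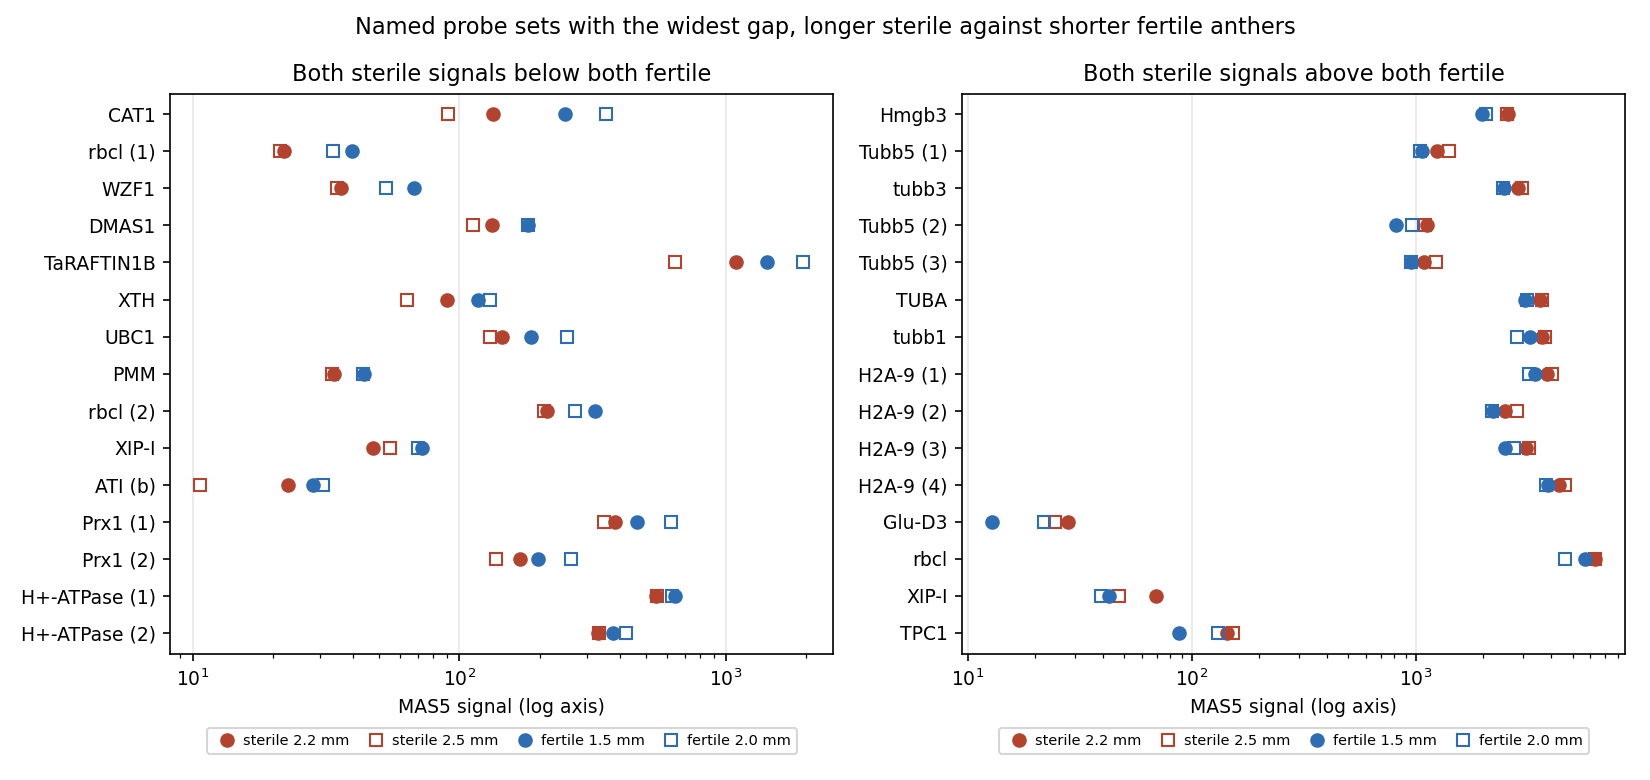
Points give the MAS5 signal (x axis, log scale) of the 15 named probe sets with the widest gap in each direction (rows, numbered where a gene has several) on the 4 arrays, sterile in red and fertile in blue. CAT1 on the left has the widest gap, 1.86-fold, and Hmgb3 on the right has 1.24-fold.

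The named probe sets above the fertile range were mostly tubulin and histone probe sets, with high signals and narrow gaps. Hmgb3, a high-mobility-group protein that binds DNA in chromatin (chromosome 7A), had the widest gap of these. On Ta.30768.3.S1_x_at it read 2578 and 2542 in sterile against 1961 and 2053 in fertile anthers. Its means on the log2 scale were 11.32 ± 0.01 in sterile and 10.97 ± 0.05 in fertile anthers (SD, n = 2 each), 1.28-fold apart. Its other probe set read 3065 and 3458 in sterile against 2583 and 2951 in fertile anthers. H2A-9, a histone H2A, had 4 probe sets above and 2 overlapping. On Ta.27657.1.S1_at it read 2496 and 2810.4 in sterile against 2207 and 2185 in fertile anthers, and the gaps of the 4 were 1.12-fold to 1.13-fold.

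Tubulins are the subunits of microtubules, which form the spindle and the cell plate in dividing cells. Of 10 tubulin probe sets, 8 lay above the fertile range, 0 below and 2 overlapped, beside 12.0% above and 26.1% below of all tested probe sets. Their median difference was 0.29 on the log2 scale, beside -0.09 over all tested. The beta-tubulin tubb3 read 2857 and 2986 in sterile against 2473 and 2445 in fertile anthers. Tubb5, on Ta.214.2.A1_x_at, read 1238 and 1399 in sterile against 1066 and 1046 in fertile anthers, and its 3 other probe sets also lay above. The beta-tubulin tubb1 read 3651 and 3748 in sterile against 3221 and 2818 in fertile anthers. TUBA, an alpha-tubulin, read 3578 and 3652 in sterile against 3052 and 3129.9 in fertile anthers on Ta.812.1.S1_x_at. Under quantile normalization and under median centring 9 of the 10 lay above. The sequences of tubulin genes are much alike, and probe sets ending in _x_at or _s_at can bind several of them.

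Of 20 histone and chromatin probe sets, 10 lay above, 1 below and 9 overlapped, again beside 12.0% above and 26.1% below of all tested, with a median difference of 0.18 beside -0.09. These probe sets stand for only 6 genes, and those ending in _x_at or _s_at can bind several of them, so they are not independent. Histones package newly replicated DNA. Quantile normalization gave 9 above and 0 below, and median centring 12 above and 0 below. The 1 below, wcH2B-8 on Ta.7378.18.S1_x_at, read 1373 and 1324 in sterile against 1399 and 1429.6 in fertile anthers, and its mean difference turned to 0.01 after median centring. Named members above the range outside these lists included TPC1, a calcium-permeable channel of the vacuole (143.9 and 152.2 in sterile against 88.0 and 130.4 in fertile anthers), and Glu-D3, a glutenin of the grain (28.0 and 24.6 in sterile against 12.9 and 22.0 in fertile anthers, near the low end of the array).

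Most of the other lists had members in 1 or both directions, beside 12.0% above and 26.1% below of all tested probe sets. Only probe sets past the filter are counted: 16 of 37 for photosynthesis, 7 of 13 for sugar and starch and 7 of 24 for defence. Of 16 photosynthesis probe sets, 1 lay above and 3 below, all of them rbcl, and 12 overlapped, with a median difference of -0.22. Of 9 antioxidant probe sets 5 lay below (CAT1, 3 of Prx1, and 1 of lgul, the glyoxalase that clears methylglyoxal) and 0 above. Of 7 sugar and starch probe sets 3 lay below (PMM and the fructan exohydrolases 1-FEH and 6-FEH) and 0 above. Of 9 translation probe sets 3 lay above and 3 below, and 2 of those above, both of TEF1, turned below under quantile normalization. Of 7 defence and inhibitor probe sets 1 lay above and 3 below, and of 5 methyl-cycle and methyltransferase probe sets 2 above and 0 below. Of 10 cold and dehydration probe sets only 3 passed the filter (Rab15 and EM, both of the late-embryogenesis-abundant kind), and all 3 overlapped. Of 4 gibberellin probe sets 2 passed, both of gibberellin 20-oxidase, which takes part in making gibberellins, and both overlapped. Grain storage proteins, whose transcripts an anther should lack, had 6 of 17 probe sets at or below 4.05 on all 4 arrays and 3 of 17 past the filter. The signals of the 17 summed to 1012 and 1081 in sterile against 971.4 and 999.1 in fertile anthers. Most of this came from ALP (Ta.27777.1.S1_at), a bright member with 863.8 and 915.8 in sterile against 827.7 and 854.5 in fertile anthers.

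The probe sets with overlapping ranges included genes whose signal differed widely between the conditions at equal length. PRK, the phosphoribulokinase of the Calvin cycle, read 188.0 and 151.3 in sterile against 187.1 and 217.9 in the shorter fertile anthers, and overlapped. In fertile anthers of 2.2 and 2.5 mm it read 773.1 and 1007. BMY1, a beta-amylase that breaks down starch, read 370.4 and 226.3 in sterile against 451.9 and 166.3 in the shorter fertile anthers, and 1327 and 1136 in fertile anthers of 2.2 and 2.5 mm. Pgk-1, a phosphoglycerate kinase, read 512.1 and 367.1 in sterile against 487.9 and 755.6 in the shorter fertile anthers, and 1877 and 2058 in fertile anthers of 2.2 and 2.5 mm. In each of these genes the ranges of longer sterile and shorter fertile anthers overlapped, and the longer sterile anthers lay below the fertile ones of their own length. The 4 signals of the comparison spanned 1.44-fold for PRK, 2.72-fold for BMY1 and 2.06-fold for Pgk-1, so they were not close in all 3. PsbO and PsbP, subunits of the oxygen-evolving complex, and petC, the Rieske protein of the cytochrome b6f complex, overlapped as well. PsbO read 1141 and 837.8 in sterile against 860.6 and 1144 in the shorter fertile anthers.

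Overlap alone says little of how close the signals were. Of the 18937 probe sets that overlapped, 3925 had a highest signal at most 25% above the lowest. The named ones of high level with the smallest spans were wcH2B-8, a histone H2B (Ta.7378.18.S1_at, with 1478 and 1595 in sterile against 1540.4 and 1552 in fertile anthers, a span of 1.08-fold), tubb2 (1.10-fold) and FKBP70, a peptidyl-prolyl isomerase that acts as a chaperone (1734 and 1887 in sterile against 1936 and 1829 in fertile anthers, 1.12-fold). A pair of other wcH2B-8 probe sets spanned 1.19-fold and 1.22-fold. Trx-M, a plastid thioredoxin, read 233.2 and 190.6 in sterile against 192.5 and 235.4 in fertile anthers, a span of 1.23-fold. With 2 arrays a side these spans bound what was measured and do not show equality.

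The 139 tested probe sets with a 2-fold gap were mostly dim. The brightest 20393 of the 30590 tested held 47 of the 110 below and 5 of the 29 above. The 110 below had a median signal of 19.9 in sterile and 70.6 in fertile anthers, and their means were 2.15-fold to 21.1-fold apart, with a median of 3.60-fold. They are the part of 569 such probe sets that passed the filter on level, and the 29 above are the part of 401. In 15 of the 110 a sterile signal stood at the level to which low signals were raised. The 29 above had a median signal of 49.0 in sterile and 13.8 in fertile anthers, and in 3 a fertile signal stood at that level. A gene was given for 4 of the 110 and 2 of the 29, where 866 of all 30590 tested had one. In each case it was a LOC number for which no name or function was found. Both of the 29 belong to LOC543002 on chromosome 1D. Ta.23704.1.S1_x_at read 607.6 and 539.8 in sterile against 179.4 and 208.7 in fertile anthers, and Ta.23704.1.S1_s_at read 909.9 and 1082 in sterile against 335.7 and 425.0 in fertile anthers. LOC542846 on chromosome 3D had 17.4 and 27.8 in sterile against 130.0 and 96.3 in fertile anthers on Ta.261.1.S1_at. LOC543359 on chromosome 5D had 40.6 and 36.6 in sterile against 90.3 and 90.2 in fertile anthers. Of the probe sets with no gene, TaAffx.19109.1.A1_at had the widest gap above, 19.6-fold, with 177.7 and 140.4 in sterile against 6.09 and 7.16 in fertile anthers. TaAffx.12142.1.S1_at followed with 20.6 and 38.2 in sterile against 1.39 and 4.40 in fertile anthers, a gap of 4.68-fold. The widest gap below was that of Ta.4006.2.S1_at, with 3.95 and 2.73 in sterile against 52.0 and 69.7 in fertile anthers. Both sterile signals were raised to 4.05, so its gap of 12.8-fold is set by that level. Ta.12008.1.S1_at read 7.12 and 5.33 in sterile against 57.2 and 78.8 in fertile anthers.

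Whether the members held up was examined on the 6 arrays that had no part in choosing them: sterile anthers of 1.5, 2.0 and 3.0 mm against fertile anthers of 2.2, 2.5 and 3.0 mm. Here the fertile anthers are on average the longer ones, the opposite of the comparison that chose the members. Within each group every array is of a different length, so the spread includes change with length and is not that of replicates. With limma and Benjamini-Hochberg adjustment over the 30590 probe sets, 0 probe sets (0%) passed an adjusted p of 0.05 in either direction, the smallest adjusted p being 0.10, while 5777 had an unadjusted p under 0.05. Leaving out the sterile 3.0-mm array gave 251 higher and 414 lower, leaving out the fertile 3.0-mm array 72 higher and 94 lower, and leaving out both 2129 higher and 2191 lower. No named member passes on all 6 arrays, and the values below are given with their standard errors.

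The 110 probe sets chosen as lower had a median sterile minus fertile difference of -1.23 on the log2 scale over the 6 arrays, with 93 below 0 and 17 above. Over all tested probe sets the median was 0.04, with 14313 below 0 and 16277 above. All 3 sterile signals lay below all 3 fertile ones for 30 of the 110 (27.3%, where 10.5% of all tested probe sets did), and above for 2 (1.82%, where 15.1% did). The 3.0-mm arrays stood apart. Without them, sterile anthers of 1.5 and 2.0 mm stand against fertile ones of 2.2 and 2.5 mm, so that no length is shared. Both sterile signals then lay below both fertile ones for 78 of the 110 (70.9%, where 26.0% of all tested did). The median difference was -2.16. That share is for probe sets past the filter only, and none is given without the filter. The 3.0-mm arrays were left out after the data were seen, so nothing is read from the share. At 3.0 mm itself 56 of the 110 were higher and 53 lower in sterile anthers, with a median of 0.03. Their median signal was 23.8, 25.9, 20.9, 17.7 and 65.7 in sterile anthers from 1.5 to 3.0 mm, against 75.1, 70.8, 103, 102 and 44.8 in fertile anthers. The filter on level favours members that are high on other arrays. Without it, the 569 probe sets below by a 2-fold gap had a median of -0.35, with 367 below 0 and 202 above, and all 3 sterile signals lay below all 3 fertile ones for 69 (12.1%, where 8.03% of all 61179 did). The 401 above had a median of -0.004, with 201 below 0 and 200 above. The median over all 61179 was 0.00. The median signal of the 110 was low in sterile anthers up to 2.5 mm and high at 3.0 mm, where the fertile median was at its lowest.

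For the 29 chosen as higher the median lay close to that of all probe sets. Their median difference on the 6 arrays was 0.14 (0.04 over all tested probe sets), with 15 above 0 and 14 below, and all 3 sterile signals lay above all 3 fertile ones for 3 (10.3%, where 15.1% of all tested did) and below for 3. Their median signal was 42.2, 33.8, 45.1, 50.8 and 36.8 in sterile anthers from 1.5 to 3.0 mm, against 13.4, 13.9, 31.6, 32.8 and 42.8 in fertile anthers. The fertile level at 2.2 mm and beyond thus came near to the sterile one. LOC543002 followed this pattern on Ta.23704.1.S1_x_at, with 426.4, 561.1 and 893.3 in sterile anthers of 1.5, 2.0 and 3.0 mm against 444.9, 422.7 and 1622 in fertile anthers of 2.2, 2.5 and 3.0 mm. TaAffx.19109.1.A1_at did not, with 17.2, 33.8 and 214.9 in sterile against 4.94, 3.82 and 3.07 in fertile anthers, a difference of 3.53 ± 0.89 (SE, limma, adjusted p = 0.13). Among all members, of which most have narrow gaps, 1141 of the 3660 above (31.2%, where 15.1% of all tested did) had 3 sterile signals above 3 fertile ones on the other arrays, and 1289 of the 7993 below (16.1%, where 10.5% did) had 3 below.

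**Figure D3:**
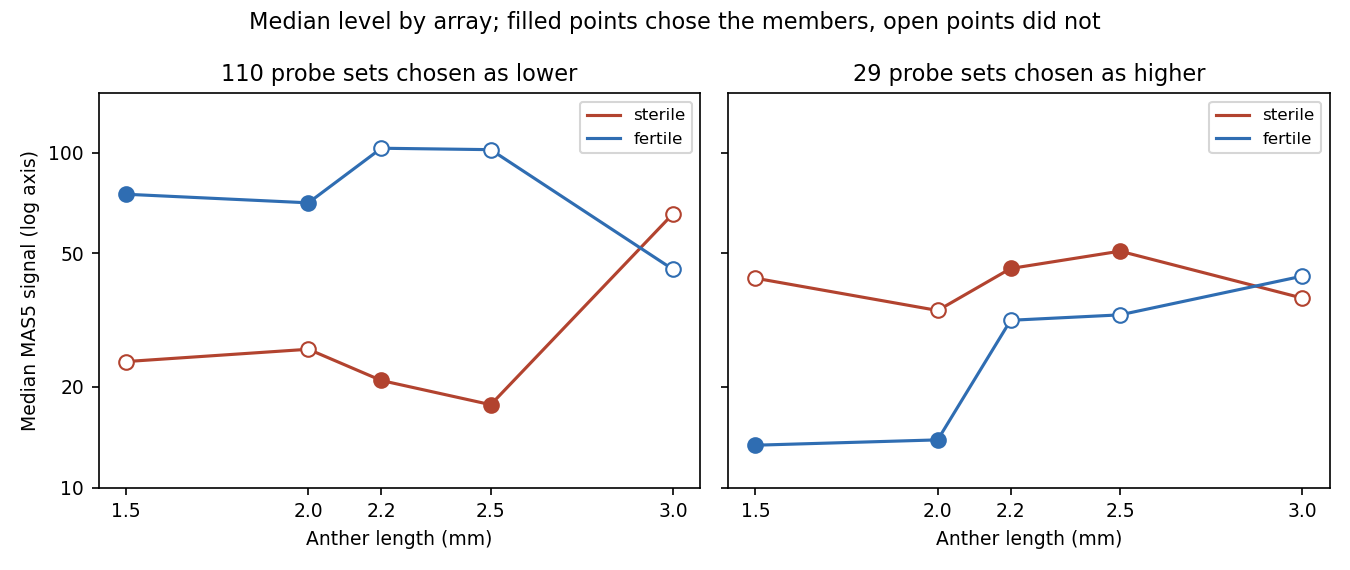
Lines give the median MAS5 signal (y axis, log scale) by anther length (x axis, mm) of the 110 probe sets chosen as lower (left) and the 29 chosen as higher (right), in sterile (red) and fertile (blue) anthers. Filled points are the 4 arrays that chose the members, and open points the other 6: the lower members reach 65.7 in sterile against 44.8 in fertile anthers at 3.0 mm, and the higher ones 36.8 against 42.8.

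The named genes split by group on these 6 arrays, though no probe set passed the adjusted threshold. Of all tested probe sets, 53.2% had a difference above 0, 15.1% had all 3 sterile signals above all 3 fertile ones and 10.5% all 3 below, with a median of 0.04. The 4 tapetum probe sets had all 3 sterile signals below all 3 fertile ones, with a median difference of -2.39. TaRAFTIN1B (Ta.4091.1.S1_x_at) read 254.3, 242.3 and 2102 in sterile anthers of 1.5, 2.0 and 3.0 mm, against 2696, 2929 and 3999.9 in fertile anthers of 2.2, 2.5 and 3.0 mm, a difference of -2.64 ± 0.79 (SE, limma, adjusted p = 0.16). TaRAFTIN1A (Ta.4195.1.S1_at) read 593.6, 535.1 and 2749.8 in sterile against 5903, 4499 and 5666 in fertile anthers, a difference of -2.48 ± 0.59 (limma, adjusted p = 0.13). For both genes the sterile 3.0-mm array stood far above the shorter sterile ones and still below the fertile arrays of 2.2, 2.5 and 3.0 mm. Of the 20 histone and chromatin probe sets, which stand for only 6 genes, 19 were higher in sterile anthers, 12 with no overlap, with a median of 1.17. Hmgb3 (Ta.30768.3.S1_x_at) read 3132, 2750.1 and 2501 in sterile against 1351, 1800.0 and 1377 in fertile anthers, a difference of 0.89 ± 0.19 (limma, adjusted p = 0.12). H2A-9 (Ta.27657.1.S1_at) read 2640.3, 2642 and 1759 in sterile against 1318, 1302 and 450.9 in fertile anthers, a difference of 1.33 ± 0.43 (limma, adjusted p = 0.18).

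Tubulins differed less. Of the 10 probe sets, 8 were higher in sterile anthers on the 6 arrays (53.2% of all tested were) but 1 without overlap (15.1% of all tested), with a median of 0.37. That 1 was tubb3, with 2569.6, 3202 and 2649 in sterile against 1539, 1904 and 2366 in fertile anthers, a difference of 0.55 ± 0.21 (limma, adjusted p = 0.22). CAT1, the named gene with the widest gap, overlapped on the other arrays. It read 48.4, 50.5 and 225.0 in sterile anthers of 1.5, 2.0 and 3.0 mm, against 283.3, 157.6 and 60.0 in fertile anthers of 2.2, 2.5 and 3.0 mm, a difference of -0.76 ± 0.75 (limma, adjusted p = 0.62). Its signal was thus higher in sterile than in fertile anthers at 3.0 mm and lower at each shorter length. WZF1, DMAS1, XTH and UBC1 overlapped too, with differences between -0.10 and 0.53. Of the photosynthesis probe sets, which mostly overlapped in the comparison of longer sterile with shorter fertile anthers, 14 of 16 were lower in sterile anthers here, 6 with no overlap. Their median was -1.22 beside 0.04 over all tested. Of all 30590 tested, 14313 were lower, and 10.5% were lower with no overlap. PRK read 57.5, 83.3 and 433.8 in sterile against 773.1, 1007 and 1573 in fertile anthers, a difference of -3.07 ± 0.72 (limma, adjusted p = 0.12).

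**Figure D4:**
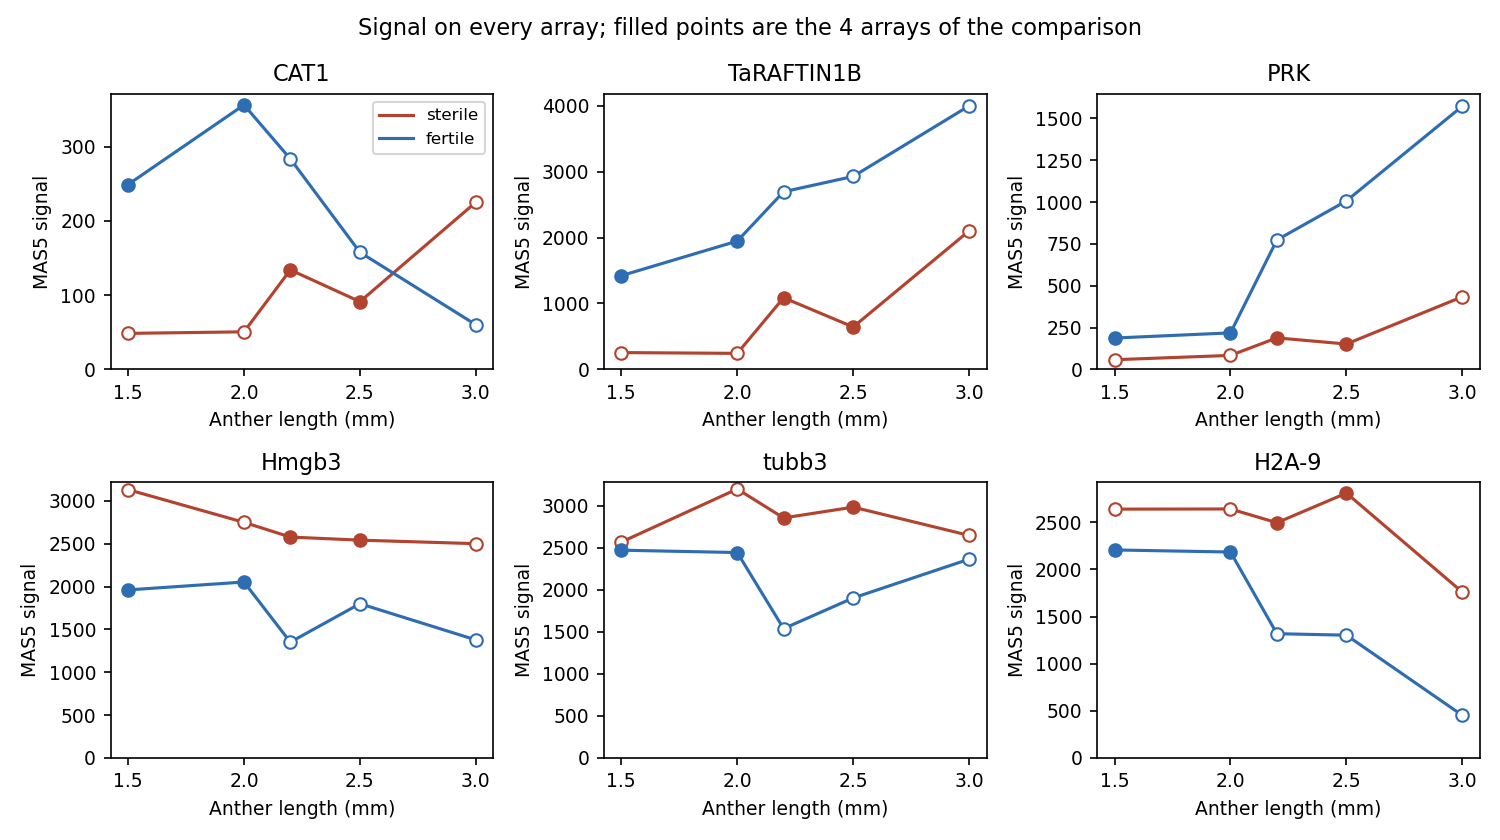
Each panel gives the MAS5 signal (y axis) of 1 probe set by anther length (x axis, mm) in sterile (red) and fertile (blue) anthers, 1 array per point, with the 4 arrays of the comparison filled. The filled points of PRK overlap (188.0 and 151.3 in sterile, 187.1 and 217.9 in fertile anthers), while those of CAT1 are 1.86-fold apart at their nearest.

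**Figure D5:**
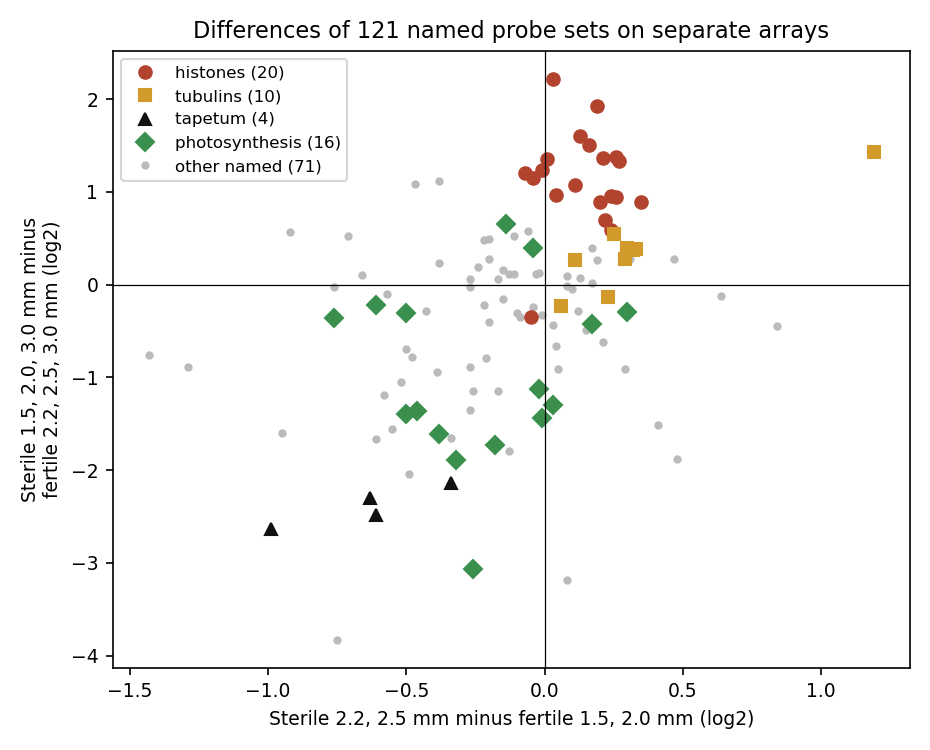
Each point is 1 of 121 named probe sets, with the difference between longer sterile and shorter fertile anthers (x axis, log2) and that on the 6 other arrays (y axis, log2), coloured by gene list. Histone and chromatin probe sets have medians of 0.18 and 1.17 on the axes, and the 4 tapetum probe sets -0.62 and -2.39.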

How the data were processed

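The authors deposited MAS5 signals, which are linear intensities of probe sets (no version of MAS5 was found in the sources used here). The table holds 61290 rows and 10 arrays, and signals ran from 0.017 to 8641. Precision is limited by how many arrays there are. After leaving out 111 control probe sets, every signal below 4.05, the table's 20th percentile, was set to that value before taking log2, and the upper 30590 of 61179 probe sets by mean log2 level were kept. The members, gene lists and named genes were chosen with earlier results of these data known. Named were up to 15 named probe sets per direction with the widest gap among those past the filter, up to 2 LOC-number and 2 unannotated probe sets per direction, up to 6 overlapping ones with the smallest span among the brightest 20393, the TaRAFTIN1 genes, and up to 4 members of each list. List members were picked with their values known. The 6 other arrays were fitted with limma 3.58.1 (lmFit, eBayes with a trend, 4 residual degrees of freedom) in R 4.3.3, tested on simulated data, with Benjamini-Hochberg adjustment. An exact test of 3 arrays against 3 cannot go below p = 0.1. P-values measure only the spread between arrays. Within a group these arrays differ in anther length, so lengths stand in for replicates. A platform annotation named 771 genes for 1273 probe sets, and 770 were found by ID in RefSeq (IWGSC CS RefSeq v2.1). The other 59906 had no gene. Alternatives tried were median centring, quantile normalization, no floor or one at the 40th percentile, no filter or a stricter one (20393 probe sets), each array left out, eBayes without a trend, and anther length as a covariate.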

Additional observations from a re-analysis of the deposited data

Results flagged for a closer look

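In 4 named probe sets the difference between longer sterile and shorter fertile anthers and the difference on the 6 other arrays ran in opposite directions, with no overlap in either. They come from 30 named probe sets above the fertile range and 31 below. Among all members, 128 of the 3660 above (3.50%) and 704 of the 7993 below (8.81%) reversed in the same way. The 4 are given as examples, and nothing is read from their count. The contrast between both differences was not tested. PEAMT1, a methyltransferase of choline synthesis, read 737.0 and 733.8 in sterile anthers of 2.2 and 2.5 mm against 444.7 and 692.9 in fertile anthers of 1.5 and 2.0 mm. On the other arrays it was lower in sterile anthers by a log2 difference of -1.51, with 704.6, 741.0 and 918.7 in sterile against 1473, 2076 and 3600.4 in fertile anthers. PMM lay below in the longer sterile anthers and above on the other arrays (1.12), and wcH2B-8 on Ta.7378.18.S1_x_at did the same (1.20). The gap of wcH2B-8 in the longer sterile anthers was only 1.02-fold and closed under either scaling. XIP-I on Ta.1200.1.S1_x_at lay above and then below (-1.88), and its signal of 4.83 on the sterile 2.0-mm array is near the low end of the array.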

How the results depend on the processing

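Each count rests on 4 arrays, and scaling, the filter on level and single arrays move it. Beside 3660 above, quantile normalization gave 5952 and no filter 7069. Of the 2-fold gaps above (29), quantile normalization gave 46, no filter 401 and the stricter filter 5, and of those below (110), no filter gave 569 and the stricter filter 47. Overlapping ranges (18937) became 42578 without the filter and 12377 with the stricter one. These alternatives for overlapping ranges, and those for equal lengths, were chosen after seeing the data. The tested set itself grows to 61179 or shrinks to 20393 there. With both conditions at 1.5 and 2.0 mm, 56 probe sets lay above and 383 below by a 2-fold gap, and 88 and 298 after median centring. With 1 array of the 4 left out, a range on 1 side is a single signal, so counts grow by construction: 6991 to 9699 above, 11991 to 16060 below, 73 to 308 above and 318 to 689 below by a 2-fold gap. On the 6 other arrays, limma called 0 higher and 0 lower. Leaving out 1 array gave 0 to 251 higher and 0 to 414 lower. In those runs calls appeared only where the array left out was a 3.0-mm one. Leaving out both 3.0-mm arrays, an alternative added after seeing the data, gave 2129 and 2191. Without a trend in eBayes, 2 were higher. Alternatives of scaling, floor and filter choose the members anew. For members higher by a 2-fold gap the median difference turned to -0.004 without the filter (401 members). For the 29 it lay between -0.125 and 0.238 with 1 array left out. For members lower by a 2-fold gap it stayed below 0 in every alternative run. It ran from -2.164 without both 3.0-mm arrays (the 110) to -0.350 without the filter (569 members). The cause was not tested. No paired analysis was possible because the 4 arrays of the comparison share no length between the conditions and the 6 others share only 3.0 mm.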

Other observations

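The array's own control probe sets, which the comparison leaves out, include transcripts of wheat. Of the 111, both sterile signals lay above both fertile ones for 4 and below for 21, with a 2-fold gap for 0 above and 2 below. The controls were not filtered on level. Of the 61179 other probe sets without the filter, 7069 lay above and 11532 below, 401 and 569 of them by a 2-fold gap. Past the filter the shares were 12.0% above and 26.1% below. Nothing is read from the control counts. Controls not named for wheat also lay outside the fertile range, and those given here were picked with their values known. AFFX-r2-Ec-bioB-5_at read 70.1 and 73.2 in sterile against 100.2 and 98.7 in fertile anthers. Its gap was -0.43 on the log2 scale, beside -0.89 for CAT1 and -0.39 for TaRAFTIN1B on Ta.4091.1.S1_x_at. AFFX-r2-TagIN-5_at lay above, with 33.3 and 39.5 in sterile against 28.0 and 25.8 in fertile anthers. The 2 controls below by a 2-fold gap are named for glucose-6-phosphate dehydrogenase, the first enzyme of the oxidative pentose phosphate pathway, and were picked after their values were seen. The probe set for the 3′ end read 703.0 on S2.2 and 502.3 on S2.5, against 1567 on F1.5 and 1492 on F2.0, and that for the 5′ end read 358.4 and 252.9 in sterile against 811.2 and 762.1 in fertile anthers. Across lengths from 1.5 to 3.0 mm the 3′ probe set read 403.3, 443.4, 703.0, 502.3 and 2792 in sterile anthers, against 1567, 1492, 4237, 3250.4 and 276.7 in fertile anthers, so that it was lower in sterile anthers up to 2.5 mm and higher at 3.0 mm.

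The control probe sets named for sucrose synthase, which splits sucrose for use in growing tissue, also lay below the fertile range. Their gaps were narrow, -0.24 (3′ and 5′ ends) and -0.23 (middle) on the log2 scale. The 3′ one read 260.6 and 253.0 in sterile against 324.2 and 308.6 in fertile anthers. In fertile anthers of 2.2 and 2.5 mm it read 1746 and 3872.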
